A study of Mus musculus with 18 samples.

Results

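The thyroids exposed to the highest absorbed dose of the alpha emitter 211At, 32.4 Gy, were set against those exposed to 11.2 Gy, the dose next below it. Each group was represented by 3 arrays, so that 6 of the 18 arrays of the study entered the comparison. Transcripts were counted as detected when their probe had a detection p-value under 0.01 on all 3 arrays of either group, which held for 10107 of 25697 probes. Both groups were BALB/c nude mice, all female and 6 months old per the study's methods, and were killed 24 h after an intravenous injection of 211At. Nude mice lack a functional thymus, which limits them as a model of T cell responses. The non-irradiated controls (0 Gy, treated with an empty syringe) did not enter the test, and their values are given only as levels. The thyroids of a dose group were pooled before RNA extraction, so that the 3 arrays of a dose are repeat measurements of 1 RNA pool. A p-value therefore measures only the spread between arrays, and the variation between mice was not measured.

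The thyroid follicular cell concentrates iodide, which enters through the sodium iodide symporter, and it also takes up the halogen astatine, whose uptake depends less on this carrier. Alpha particles deposit their energy within a few cell diameters and leave dense double-strand breaks, to which cells are known to respond through p53, repair and cell cycle genes. The mouse thyroid lies against the trachea, between strap muscles, and close to the salivary glands and to brown and white fat.

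The labelled tissue was first checked against its defining markers. Of 17 thyroid follicular genes with a probe, only 3 were detected, namely Slc5a8, Cpq and Hhex, none of which is restricted to the thyroid. Thyroglobulin (Tg), the TSH receptor (Tshr), the sodium iodide symporter (Slc5a5), pendrin (Slc26a4), Duox2, Iyd and the transcription factors Pax8, Nkx2-1 and Foxe1 were not detected on all 3 arrays of either dose, and of these only Slc26a4 was detected on a single array. Parathyroid genes were detected in 0 of 3 cases and C cell genes in 2 of 8 (Ret and Syp). In contrast, secretory genes of the salivary glands, brown fat genes and muscle genes were bright in both pools. The data thus went against the label thyroid as the main source of the RNA, and the groups are called by their dose below.

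Between 10344 and 11171 probes per array were detected at 32.4 Gy and between 10257 and 10571 at 11.2 Gy. Across probes, correlations of log2 values between arrays were 0.9931 to 0.9941 within a dose and 0.9803 to 0.9821 between the doses. The values below are the authors' quantile-normalized fluorescence intensities, in arbitrary units, and each log2 ratio is that of 32.4 Gy over 11.2 Gy with its standard error. A probe was called when limma gave an adjusted p under 0.01 and the ratio was at least 1.5-fold. In pooled tissue, fewer cells of a type and less RNA per cell cannot be told apart.

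Few of the detected transcripts were called between the 2 doses. Of the 10107 detected probes, 219 (2.17%) were called, 143 of them higher and 76 lower at 32.4 Gy. Of all 25697 probes, 0.856% were called (0.56% higher and 0.296% lower). The called probes represented 176 genes, and 19 of them have no gene symbol in the annotation used. The median log2 ratio was -0.00 over the detected probes, with a median standard error of 0.081. At least 2-fold changes were found in 38 probes that rose and in 10 that fell, but the lower ones reached much further. The lowest ratio was -6.21 (Chia1), whereas the highest was 2.41. The 3 arrays of 32.4 Gy lay entirely above those of 11.2 Gy for 1765 detected probes and entirely below for 1751. Together these were 34.8% of the detected probes, while over all probes the shares were 9.88% above and 10.1% below. Of the detected probes, 612 were detected on all arrays of 32.4 Gy only and 313 on all arrays of 11.2 Gy only, and 194 of the called probes were detected on all 6 arrays.

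**Figure D1:**
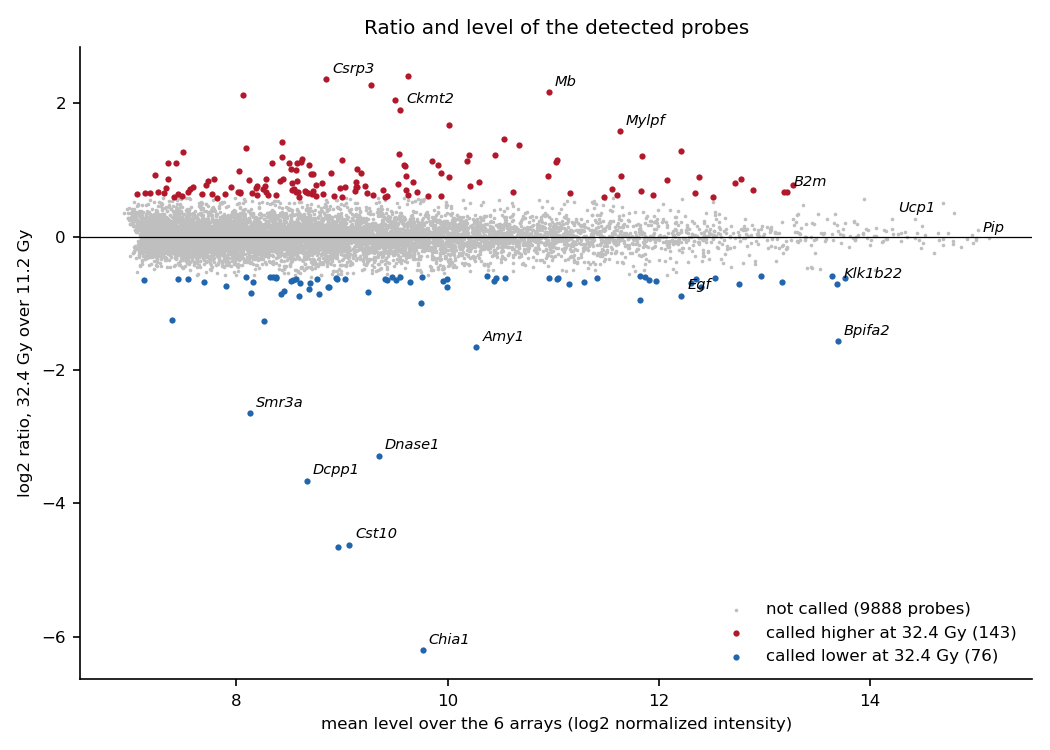
Log2 ratio of 32.4 Gy over 11.2 Gy (vertical axis) against the mean level over the 6 arrays (horizontal axis, log2 normalized intensity) for the 10107 detected probes. Of the called probes, 143 lie above and 76 below, and the 5 named genes with the lowest ratios, Chia1, Cst10, Dcpp1, Dnase1 and Smr3a, lie at -2.64 or lower.

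The transcripts that fell furthest at 32.4 Gy encode secreted proteins of the parotid gland and of the serous demilunes, the crescent-shaped secretory caps of the sublingual gland. Chia1 (an acidic chitinase), Cst10 (a cystatin, an inhibitor of cysteine proteases), Dcpp1 (demilune cell and parotid protein) and Dnase1 (a secreted nuclease) were close to or below the detection limit at 32.4 Gy and clearly present at 11.2 Gy. Dcpp1 has near-identical copies in the mouse genome, so that its probe may also report those. The bases that report these differences are given by the array's own probes, as printed in the probe annotation of the study, 5′ to 3′. They are shown since the sizes below rest on these stretches of each transcript, 2 of them in Chia1. Chia1 lies on chromosome 3, Cst10 on chromosome 2, Dcpp1 on chromosome 17 and Dnase1 on chromosome 16.
Chia1, brighter probe: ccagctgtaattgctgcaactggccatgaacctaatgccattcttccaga
Chia1, dimmer probe: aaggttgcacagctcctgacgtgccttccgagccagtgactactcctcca
Cst10: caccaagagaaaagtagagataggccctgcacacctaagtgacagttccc
Dcpp1: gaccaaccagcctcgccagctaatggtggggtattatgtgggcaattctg
Dnase1: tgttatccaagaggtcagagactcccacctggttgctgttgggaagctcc

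For Chia1, the normalized intensity was 107, 96.2 and 100.03 at 32.4 Gy, against 7738, 7302 and 7363 at 11.2 Gy. The probe was detected on none of the 3 arrays of 32.4 Gy, so that the difference is a bound, at least 56.7-fold lower (log2 ratio -6.21 ± 0.07, adjusted p = 1.831e-15). The dimmer probe of Chia1 also fell (log2 ratio -4.65). Cst10 had 106, 119.6 and 99.97 at 32.4 Gy, against 2776, 2693 and 2528 at 11.2 Gy. It was likewise not detected at 32.4 Gy and was at least 20.2-fold lower (log2 ratio -4.62 ± 0.08, adjusted p = 1.527e-13). Intensities of Dcpp1 were 98.2, 139 and 109.6 at 32.4 Gy, against 1512, 1458 and 1365 at 11.2 Gy, with 1 of the 3 arrays of 32.4 Gy above the detection limit (log2 ratio -3.66 ± 0.11, adjusted p = 6.464e-11). Dnase1 remained detected in all arrays and had 207, 201 and 218 at 32.4 Gy, against 2090, 1989 and 2023 at 11.2 Gy (log2 ratio -3.29 ± 0.07, adjusted p = 1.594e-12). In each of these genes the 2 groups of arrays were far apart, and the arrays of a dose differed little. All 4 genes were near the top of the intensity scale in the non-irradiated pool, where Chia1 had 30897, 32497 and 30182 and Cst10 27051, 27051 and 28107.

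The digestive enzymes and the abundant parotid secretory protein fell less steeply. Amy1, salivary amylase, had 648, 709.9 and 735 at 32.4 Gy, against 2097, 2080 and 2421 at 11.2 Gy (log2 ratio -1.65 ± 0.08, adjusted p = 2.765e-08), and Amy2a5, named pancreatic amylase, had 242, 182 and 175 at 32.4 Gy, against 477, 508 and 448 at 11.2 Gy (log2 ratio -1.27 ± 0.11, adjusted p = 7.161e-06). Amylase genes are close in sequence, so that their probes may share transcripts. Bpifa2, the parotid secretory protein, remained bright, with 7538, 8065 and 7538 at 32.4 Gy, against 23662, 21342 and 23662 at 11.2 Gy (log2 ratio -1.57 ± 0.07, adjusted p = 1.557e-08). Rnase1, the secreted ribonuclease, was also called lower (log2 ratio -0.69), but fell short of 1.5-fold under 3 of 4 other scalings (-0.47 at the smallest). Other proteins of saliva had ratios near 0, but their probes lay near the upper end of the intensity scale, and whether this limited the measurement was not tested. Pip, prolactin-induced protein, had 34983, 33949 and 29467 at 32.4 Gy, against 34983, 33949 and 30897 at 11.2 Gy (log2 ratio -0.02), and Klk1, tissue kallikrein, had 24540, 25422 and 25959 at 32.4 Gy, against 24930, 25959 and 28107 at 11.2 Gy (log2 ratio -0.06), and in both genes the arrays of the doses overlapped. Over the list of parotid and demilune proteins, 13 of 20 genes with a probe were detected, 7 fell and 0 rose, beside 0.296% of all probes called lower. All 13 had a ratio below 0, with a median of -0.69 over the detected genes and -0.40 over all 20, against -0.00 over all probes. Their summed intensity was 76208 to 81348 at 32.4 Gy, against 114472 to 115695 at 11.2 Gy.

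**Figure D2:**
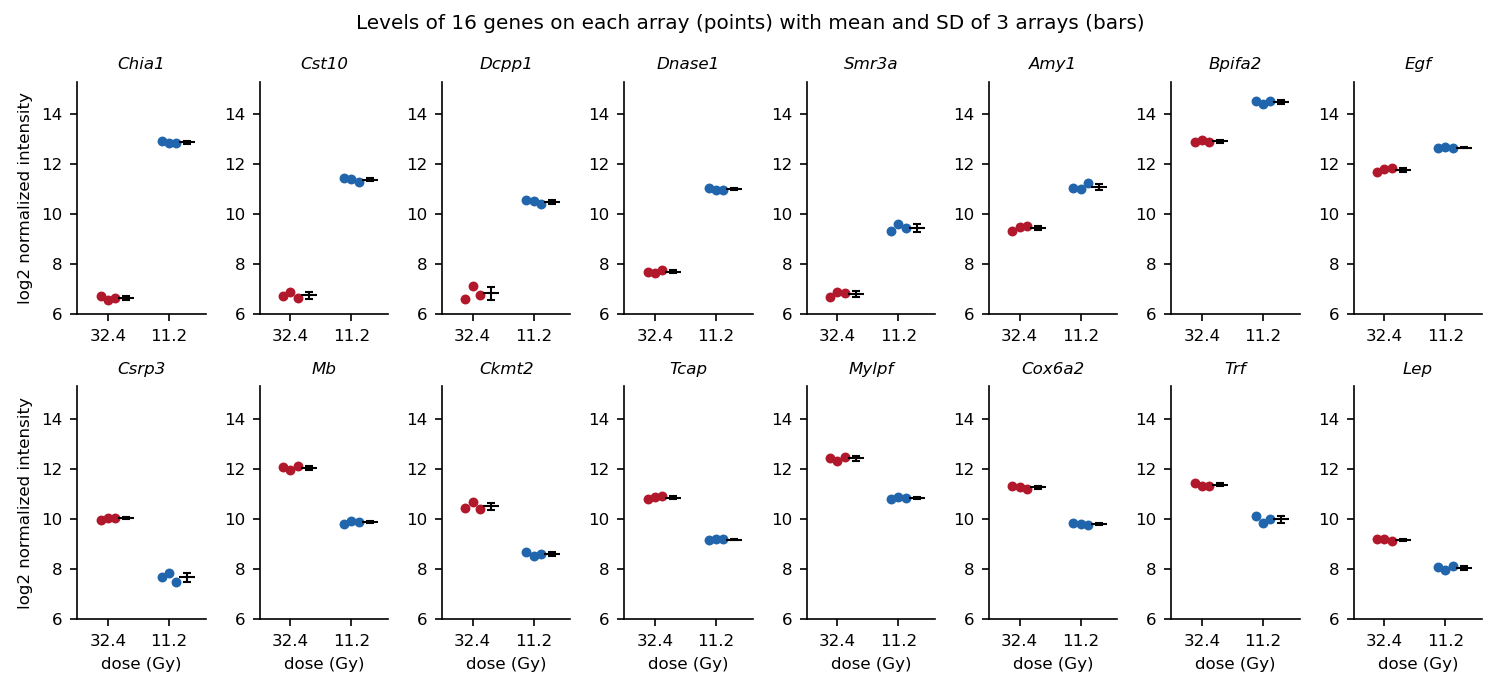
Log2 normalized intensity (vertical axis) of 16 genes on each of the 3 arrays of 32.4 Gy (red, left) and of 11.2 Gy (blue, right), with the mean and SD of the 3 arrays in black. The upper row holds secretory genes, whose arrays at 32.4 Gy all lie below those at 11.2 Gy, and the lower row holds muscle genes with Trf and Lep, whose arrays at 32.4 Gy all lie above.

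A further group of lower transcripts belongs to the submandibular gland, whose granular ducts secrete tissue kallikreins (Klk1b proteases) and epidermal growth factor. Egf had 3276, 3557 and 3631 at 32.4 Gy, against 6336, 6539 and 6449 at 11.2 Gy (log2 ratio -0.89 ± 0.07, adjusted p = 4.751e-06). Klk1b22 had 9790, 11611 and 9724 at 32.4 Gy, against 16727, 17269 and 16905 at 11.2 Gy (log2 ratio -0.71 ± 0.08, adjusted p = 0.0001259), and Klk1b9 4083, 4218 and 4134 at 32.4 Gy, against 7302, 7096 and 6644 at 11.2 Gy (log2 ratio -0.76 ± 0.07, adjusted p = 1.973e-05). Klk1b24 was at 1687, 1815 and 1835 at 32.4 Gy, against 2741, 3035 and 2952 at 11.2 Gy (log2 ratio -0.71 ± 0.07, adjusted p = 6.083e-05), and the dimmest of them, Klk1b1, at 368, 375 and 336 at 32.4 Gy, against 595, 569 and 663 at 11.2 Gy (log2 ratio -0.76 ± 0.08, adjusted p = 6.961e-05). The arrays of the 2 doses did not overlap in any of these 5 genes. Smr3a, a submandibular androgen-regulated protein, differed most, with 103, 118 and 116 at 32.4 Gy, against 637, 780.3 and 692 at 11.2 Gy. It was not detected at 32.4 Gy and was at least 5.32-fold lower (log2 ratio -2.64 ± 0.09, adjusted p = 3.065e-10).

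The kallikrein family was measured by 16 detected probes of 11 Klk1b genes. All 16 had a ratio below 0, from -0.76 to -0.01, and 10 probes of 8 genes were called lower, beside 0.296% of all probes. The smallest differences were those of the brightest probes. Klk1b27 had 36415, 36415 and 33949 at 32.4 Gy, against 36415, 36415 and 34983 at 11.2 Gy (log2 ratio -0.01), at the upper end of the scale, where the highest value of the 6 arrays was 36415. A dimmer probe of Klk1b27 was called lower (log2 ratio -0.61, but -0.57 without 11.2 Gy replicate 1). Likewise, Klk1b5 had a ratio of -0.07 by its bright probe and of -0.52 by a dimmer one. Of the 28 probes with a mean of at least 20000 at both doses, 0 were called by limma, with ratios of at most 0.50 in size, and whether the scanner's upper limit had a part in this was not tested.

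**Figure D3:**
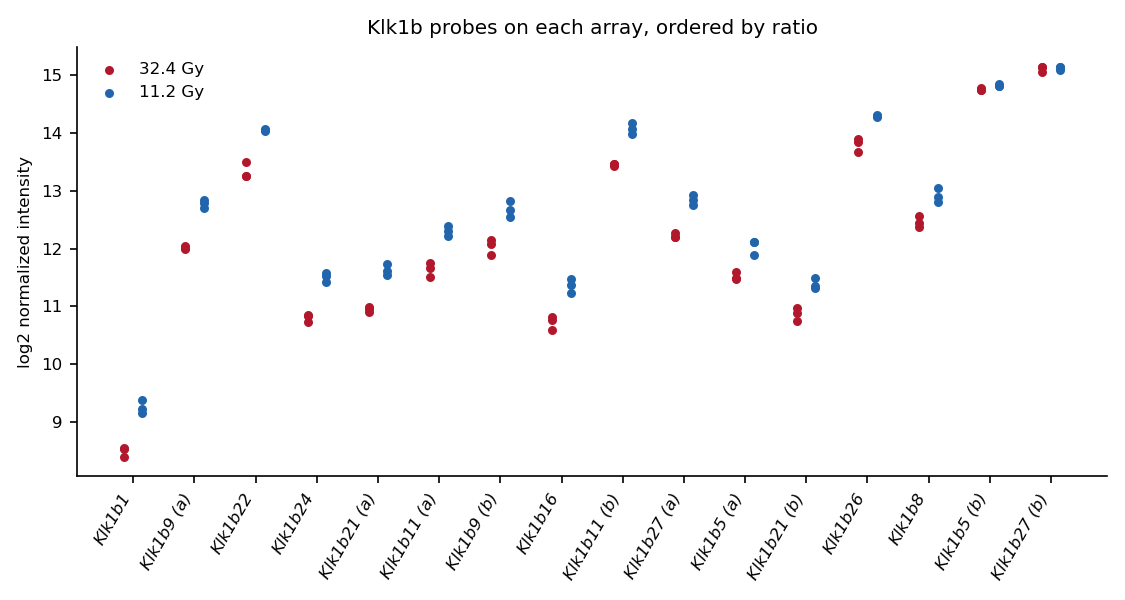
Log2 normalized intensity (vertical axis) of the 16 detected Klk1b probes on each array of 32.4 Gy (red, left of each pair) and of 11.2 Gy (blue, right), ordered by their ratio, with the probes of 1 gene told apart by letters. The arrays of the doses overlap only at the bright probe of Klk1b27, with a ratio of -0.01.

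Kallikrein probes resemble each other, which limits how far a value can be assigned to 1 gene. Probes of 6 family members on chromosome 7 cover the same stretch of the transcript and are shown for this reason, with capitals where a base differs from the Klk1b24 probe at the aligned place.
Klk1b24: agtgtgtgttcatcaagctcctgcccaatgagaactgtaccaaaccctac
Klk1b26: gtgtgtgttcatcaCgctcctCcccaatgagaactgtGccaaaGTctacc
Klk1b8: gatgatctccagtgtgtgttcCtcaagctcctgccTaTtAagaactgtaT
Klk1b21: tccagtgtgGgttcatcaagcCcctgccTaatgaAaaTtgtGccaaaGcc
Klk1b5, brighter probe: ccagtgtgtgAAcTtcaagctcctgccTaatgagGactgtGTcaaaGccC
Klk1b22: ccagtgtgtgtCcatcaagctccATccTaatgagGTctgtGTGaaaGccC
In the ungapped overlap with the Klk1b24 probe, the Klk1b26 probe matched in 44 of 49 bases (89.8%), the Klk1b8 probe in 35 of 40 (87.5%), the Klk1b21 probe in 40 of 47 (85.1%), the Klk1b5 probe in 39 of 48 (81.2%) and the Klk1b22 probe in 37 of 48 (77.1%). Their ratios were -0.71 for Klk1b24, -0.50 for Klk1b26, -0.46 for Klk1b8, -0.68 for Klk1b21, -0.07 for Klk1b5 and -0.71 for Klk1b22, of which those of Klk1b26, Klk1b8 and Klk1b5 were not called. Transcripts of one gene may bind the probe of another, and the contribution of each was not tested.

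Other proteins of the submandibular gland were not called lower. Smgc, the submandibular gland mucin C, had 31769, 29467 and 32497 at 32.4 Gy, against 33949, 32497 and 33949 at 11.2 Gy (log2 ratio -0.10), and Prol1 27486, 28852 and 28107 at 32.4 Gy, against 30182, 30897 and 33214 at 11.2 Gy (log2 ratio -0.16). Mup5, a major urinary protein that binds pheromones, went the other way, with 30897, 30182 and 33214 at 32.4 Gy, against 22564, 22564 and 21631 at 11.2 Gy. This ratio of 0.50 passed the adjusted p (0.0008289) but not 1.5-fold, although 1 gene of the list was called higher under 3 of 4 other scalings. Of 22 genes of the submandibular list with a probe, 17 were detected, 9 fell and 0 rose, beside 0.296% of all probes called lower, with a median log2 ratio of -0.62 over the detected genes and -0.31 over all 22. Mup20 (1.16) and Mup2 (0.95), of the same family as Mup5 but not on the list, were called higher. The call of Klk1b11 (log2 ratio -0.62) was lost without 11.2 Gy replicate 1 (-0.57), and that of Klk1b16 (-0.63) without 32.4 Gy replicate 3 and without 11.2 Gy replicate 3 (-0.57 in both), since the ratio then fell short of 1.5-fold. The summed intensity of the list was 232141 to 236927 at 32.4 Gy, against 264584 to 266572 at 11.2 Gy.

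Genes of the glandular epithelium that makes these proteins were lower by a smaller factor. Cdh1, the epithelial cadherin, had 492, 568 and 582 at 32.4 Gy, against 758, 869 and 918 at 11.2 Gy (log2 ratio -0.63 ± 0.09, adjusted p = 0.0007927). Elf5, a transcription factor of glandular epithelium, had 743, 639 and 725 at 32.4 Gy, against 1098, 1074 and 1016 at 11.2 Gy (log2 ratio -0.60 ± 0.08, adjusted p = 0.0003793), although 2 further probes of Elf5 gave -0.25 and -0.24 and were not called. Atp1b1, a subunit of the sodium pump, had 6355, 6798 and 6449 at 32.4 Gy, against 9625, 10150 and 9790 at 11.2 Gy (log2 ratio -0.59 ± 0.07, adjusted p = 0.0001666). Without single arrays these 3 ratios moved to between -0.53 and -0.71, and each call was lost at least once: for Cdh1 without 32.4 Gy replicate 1 (-0.56) or 11.2 Gy replicate 3 (-0.57), for Elf5 without 32.4 Gy replicate 2 (-0.53) or 11.2 Gy replicate 1 (-0.58), and for Atp1b1 without 32.4 Gy replicate 1 (-0.57), 32.4 Gy replicate 3 (-0.58) or 11.2 Gy replicate 2 (-0.57). Under neqc background correction Cdh1 also missed the adjusted p. Slc12a2, the chloride cotransporter of acinar cells, gave -0.48 by its brighter probe and -0.65, a called value, by another. Fxyd2, a regulator of the sodium pump, had a ratio of -0.56 and was not called. Of 26 genes of the epithelial list with a probe, 23 were detected. All 23 were below 0, and 3 were called lower, beside 0.296% of all probes. With these 3, 13 passed the adjusted p (1.08% of all probes did so in this direction), and the median was -0.48 (-0.44 over all 26).

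Pigr, the receptor that carries immunoglobulin A across glandular epithelium, was among the lowest 15, with 559, 608 and 663 at 32.4 Gy, against 1137, 1209 and 1304 at 11.2 Gy (log2 ratio -0.997 ± 0.08, adjusted p = 6.265e-06). Wfdc18, a secreted protein with a whey acidic protein domain, had 2455, 2715 and 2659 at 32.4 Gy, against 5164, 4845 and 5187 at 11.2 Gy (log2 ratio -0.96 ± 0.07, adjusted p = 2.892e-06). Grhl2, a transcription factor of epithelial junctions, had 241, 242 and 282 at 32.4 Gy, against 469, 459.7 and 453 at 11.2 Gy (log2 ratio -0.86 ± 0.08, adjusted p = 1.635e-05). Further called transcripts in this class, picked after their values were seen, were the epithelial splicing regulator Esrp1 (log2 ratio -0.62), the channel-activating protease Prss8 (-0.76 by its dimmer probe, while the brighter one gave -0.52 and was not called) and the junction protein Marveld3 (-0.63), the last of which was lost without 32.4 Gy replicate 1 (-0.56) and under 3 of 4 other scalings (-0.49 at the smallest). These transcripts are shared by many epithelia.

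The machinery through which secretory cells fold and export protein was little changed. Kdelr3, a receptor that returns proteins to the endoplasmic reticulum, fell, with 361, 310.1 and 279.9 at 32.4 Gy, against 509, 553 and 567 at 11.2 Gy (log2 ratio -0.78 ± 0.09, adjusted p = 0.0001623). It was the only called gene among 21 detected of 27 with a probe, beside 0.296% of all probes called lower. Of the 21, 19 had a ratio below 0 and the median was -0.21 (-0.17 over all 27). Xbp1, a transcription factor of secretory cells, was at 4702, 4242 and 4259 at 32.4 Gy, against 4845, 5436 and 5265 at 11.2 Gy (log2 ratio -0.24) and was not called.

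Most transcripts that rose furthest at 32.4 Gy belong to skeletal muscle. The contractile unit of striated muscle is built from thick myosin and thin actin filaments, is anchored at the Z disc, and is switched by calcium through the troponins. Fast fibres use their own isoforms of these proteins. In all, 36 called probes of 29 genes on the muscle lists were higher and 0 were lower, beside 0.56% and 0.296% of all probes.

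Z disc and sarcomere anchoring genes headed the list. Csrp3, the muscle LIM protein, had 1007, 1066 and 1065 at 32.4 Gy, against 203, 229 and 180.3 at 11.2 Gy (log2 ratio 2.36 ± 0.09, adjusted p = 7.481e-10), and its other probes gave 2.12 and 1.27, both called. Tcap, which caps titin at the Z disc, had 1770, 1857 and 1917 at 32.4 Gy, against 569.6, 581 and 589 at 11.2 Gy (log2 ratio 1.67 ± 0.07, adjusted p = 3.614e-09). Actn2, an alpha-actinin, had 530.5, 604 and 565 at 32.4 Gy, against 213, 204 and 215 at 11.2 Gy (log2 ratio 1.42 ± 0.07, adjusted p = 4.527e-08). The energy supply of the fibre was represented by Mb and Ckmt2. Mb, myoglobin, had 4289, 3943 and 4419 at 32.4 Gy, against 903, 965 and 944 at 11.2 Gy (log2 ratio 2.17 ± 0.07, adjusted p = 3.369e-10). Ckmt2, the mitochondrial creatine kinase of striated muscle, had 1388, 1623 and 1365 at 32.4 Gy, against 412, 364 and 390.4 at 11.2 Gy (log2 ratio 1.90 ± 0.08, adjusted p = 7.506e-09). Second probes of Mb and Ckmt2 gave 2.27 and 2.05. Cox6a2, the muscle subunit of cytochrome c oxidase, had 2546, 2478 and 2354 at 32.4 Gy, against 921, 901 and 857 at 11.2 Gy (log2 ratio 1.46 ± 0.07, adjusted p = 2.17e-08). The stretches measured in these transcripts are shown for Csrp3 (chromosome 7), Mb (chromosome 15) and Ckmt2 (chromosome 13), since the first is the named gene with the highest ratio and the other genes were called by 2 separate probes each.
Csrp3: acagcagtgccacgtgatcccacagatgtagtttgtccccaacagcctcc
Mb, brighter probe: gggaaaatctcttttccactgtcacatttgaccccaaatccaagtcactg
Mb, dimmer probe: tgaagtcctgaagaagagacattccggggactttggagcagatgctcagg
Ckmt2, brighter probe: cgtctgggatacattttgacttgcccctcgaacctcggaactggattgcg
Ckmt2, dimmer probe: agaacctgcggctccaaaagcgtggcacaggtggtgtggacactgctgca

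The isoforms of fast fibres rose together. Mylpf, the regulatory light chain of fast myosin, had 5610, 5123 and 5764 at 32.4 Gy, against 1800, 1876 and 1807 at 11.2 Gy (log2 ratio 1.59 ± 0.07, adjusted p = 1.179e-08). The fast troponin Tnnc2, which binds calcium, had 7431, 7538 and 7212 at 32.4 Gy, against 2855, 3126 and 3113 at 11.2 Gy (log2 ratio 1.29 ± 0.07, adjusted p = 9.267e-08). Tnni2, the inhibitory subunit, had 5749, 5780 and 5164 at 32.4 Gy, against 2419, 2510 and 2304 at 11.2 Gy (log2 ratio 1.21 ± 0.08, adjusted p = 3.581e-07). Tnnt3, which ties the complex to tropomyosin, had 1755, 1736 and 1706 at 32.4 Gy, against 725, 797 and 836 at 11.2 Gy (log2 ratio 1.14 ± 0.08, adjusted p = 5.446e-07). Other called genes of the list moved less. Myl1, a fast myosin light chain, had 13194, 12669 and 12867 at 32.4 Gy, against 7850, 7538 and 7331 at 11.2 Gy (log2 ratio 0.77). A dimmer probe of Myl1 gave 1.10 and was also called. Pvalb, the calcium buffer parvalbumin, had 6925, 7703 and 7156 at 32.4 Gy, against 4027, 3831 and 3887 at 11.2 Gy (log2 ratio 0.89). Atp2a1, the calcium pump of fast fibres, had 5954, 5795 and 5594 at 32.4 Gy, against 3117, 3392 and 3156 at 11.2 Gy (log2 ratio 0.84). The fast myosin Myh1 rose by its brighter probe (log2 ratio 1.15), and another probe gave 0.42, which was not called. Of 16 fast fibre genes with a probe, 15 were detected and 13 rose, beside 0.56% of all probes, with a median of 1.01 (0.98 over all 16). The summed intensity of the list was 51559 to 52403 at 32.4 Gy, against 25678 to 26231 at 11.2 Gy, a ratio of 2.01.

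Slow fibre and heart isoforms were mostly not detected. Among 14 such genes with a probe, Myh7, Myl2, Myl3, Tnni1, Tnnc1, Casq2, Myh6, Tnni3 and Actc1 were under the limit at both doses. Of the 5 detected, Csrp3 and Actn2 rose, beside 0.56% of all probes. Myoz2, a Z disc protein, had 184, 176 and 169 at 32.4 Gy, against 108, 133 and 121 at 11.2 Gy, and passed the adjusted p (0.001401) but not 1.5-fold (log2 ratio 0.55). It was not detected at 11.2 Gy, so that it was at least 1.296-fold higher, and under neqc 3 genes of this list were called. Tnnt1 was at 146, 176 and 153 at 32.4 Gy, against 146, 150.1 and 131 at 11.2 Gy (log2 ratio 0.15), and the calcium pump Atp2a2 at 1732, 1632 and 1707 at 32.4 Gy, against 2017, 1983 and 2007 at 11.2 Gy (log2 ratio -0.24). Genes common to both fibre types were detected in 23 of 30 cases, with 13 that rose, beside 0.56% of all probes, 0 that fell and a median of 0.66 (0.53 over all 30). The 13 became 10 under quantile normalization of the raw signals of the 6 arrays and 7 under 75th percentile scaling. They included Acta1, skeletal actin, with 9677, 9677 and 9135 at 32.4 Gy, against 5280, 5265 and 5051 at 11.2 Gy (log2 ratio 0.87 ± 0.07, adjusted p = 4.416e-06), Eno3, muscle enolase (log2 ratio 1.13), and the calcium pump regulator Sln, which was not detected at 11.2 Gy and was at least 1.77-fold higher. Under 75th percentile scaling the log2 ratio of Sln was 0.55, below this bound, and it was not called. Des, the intermediate filament desmin, was called (log2 ratio 0.63), but not without 11.2 Gy replicate 3 (0.58). Fhl1, a LIM protein of muscle that was picked after its values were seen, was higher by 2 probes (1.16 and 1.12). Cox8b and Cox7a1, which brown fat shares with muscle, gave 0.11 and 0.12 and were not called. Pdk4 gave -0.29 and was not called.

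Promoters of the muscle genes were searched in the 250 bases before each transcript start in RefSeq (GRCm38.p6). CAGCTG, a form of the E box that myogenic factors bind, was found in 13 of 26 promoters (50%) of the 21 called muscle genes with a promoter in the table used, against 4271 of 32851 promoters of all genes (13%). The MEF2 motif was searched on both strands and found in 4 of the 26 (15.4%), against 2.92% of all promoters. CAGCTG reads the same on both strands, and overlap between the motifs was not removed. The promoter of Mylpf (chr7:127211358-127211607, plus strand) is printed as an example, with the E box in capitals, which begins 51 bases before the start.
Mylpf promoter: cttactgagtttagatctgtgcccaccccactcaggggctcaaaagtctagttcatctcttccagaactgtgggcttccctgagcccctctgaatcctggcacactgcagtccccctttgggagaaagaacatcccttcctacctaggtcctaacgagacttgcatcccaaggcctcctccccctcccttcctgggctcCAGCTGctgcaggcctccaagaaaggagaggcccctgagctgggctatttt
A match describes the letters of the window and is no measured binding site. The genes came from lists of muscle genes, and members that were not called were not compared. These shares may therefore go with the choice of lists and cannot be tied to the dose.

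Small heat shock proteins, chaperones that are abundant in muscle, rose as well. Hspb6 had 2831, 2764 and 2516 at 32.4 Gy, against 1516, 1415 and 1401 at 11.2 Gy (log2 ratio 0.90 ± 0.08, adjusted p = 6.106e-06), and Hspb8 466, 481 and 485 at 32.4 Gy, against 279, 313 and 284 at 11.2 Gy (log2 ratio 0.71 ± 0.07, adjusted p = 5.486e-05). Cryab, alpha B-crystallin, was called (log2 ratio 0.63), but not without 32.4 Gy replicate 1 (0.54), 11.2 Gy replicate 1 (0.60, adjusted p = 0.01551) or 11.2 Gy replicate 3 (0.55), nor under any of 4 other scalings, while Hspb8 fell short of 1.5-fold under 2 of them (0.50 at the smallest). The list had 16 detected genes of 20 with a probe, and 3 were called higher, beside 0.56% of all probes. The other detected chaperones were not called by their brightest probe, and the median of the list was 0.09. A dimmer probe of Hspd1, a mitochondrial chaperonin, was called (0.60, but 0.58 without 11.2 Gy replicate 2), while the brighter one gave -0.17.

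**Figure D4:**
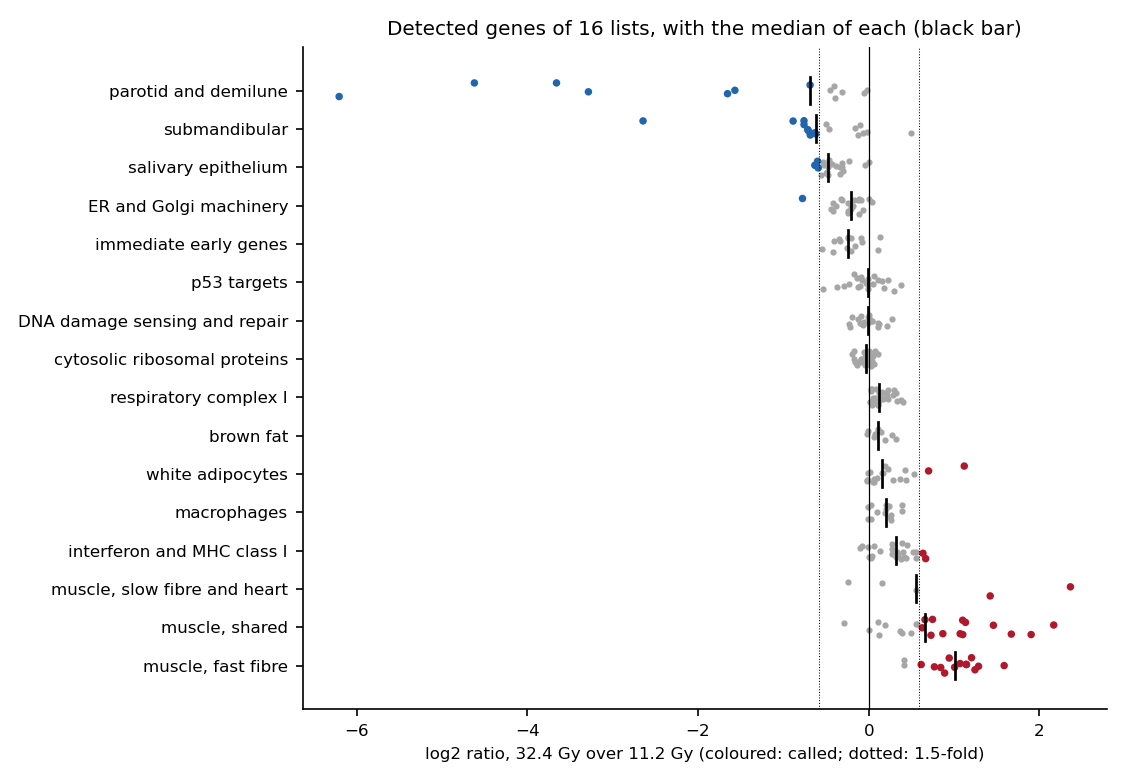
Log2 ratio of 32.4 Gy over 11.2 Gy (horizontal axis) of the detected genes of 16 lists (rows), each gene by its brightest probe, with called genes in red (higher) or blue (lower), the median as a black bar, and 1.5-fold as dotted lines. The salivary lists lie to the left with medians of -0.69, -0.62 and -0.48, the muscle lists to the right with medians of 0.55, 0.66 and 1.01, and the radiation response lists around 0.

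Brown fat genes changed little, while some genes of white adipocytes rose. Ucp1, the uncoupling protein of brown fat, had 21010, 21887 and 19476 at 32.4 Gy, against 16246, 19232 and 16400 at 11.2 Gy (log2 ratio 0.27), and of 10 detected brown fat genes of 12 with a probe limma called 0, with a median of 0.11 (2 were below 0). Among white adipocyte genes, 20 of 24 with a probe were detected, and 2 were called higher, beside 0.56% of all probes. With these 2, 5 passed the adjusted p, beside 1.43% of all probes in that direction. The median was 0.16, and 16 of the 20 were above 0. Lep, the satiety hormone leptin, had 591, 583 and 558 at 32.4 Gy, against 271, 249.6 and 277 at 11.2 Gy (log2 ratio 1.12 ± 0.07, adjusted p = 4.983e-07), and Car3, carbonic anhydrase 3, which muscle also expresses, 9026, 10627 and 9505 at 32.4 Gy, against 6020, 6225 and 5653 at 11.2 Gy (log2 ratio 0.70 ± 0.08, adjusted p = 0.0001275). Lpl, Scd1 and Acly, enzymes of lipid uptake and synthesis, gave -0.01, 0.16 and 0.06. Pparg, the regulator of adipocyte differentiation, was called by 1 probe (0.80), while its 2 other probes gave 0.53, the brightest, and 0.44. Trf, transferrin, the iron carrier of plasma, had 2753, 2578 and 2556 at 32.4 Gy, against 1110, 917 and 1024 at 11.2 Gy (log2 ratio 1.37 ± 0.08, adjusted p = 2.087e-07), and Aoc3, an amine oxidase of adipocytes and vessels, 1729, 1784 and 1912 at 32.4 Gy, against 696, 873 and 758 at 11.2 Gy (log2 ratio 1.23 ± 0.09, adjusted p = 1.377e-06).

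Of the mitochondrial pathways below, only fatty acid oxidation had called genes. Among its 22 detected genes, 3 were called higher, Hadh, Acaa2 and Acot2, beside 0.56% of all probes. Acaa2, the last enzyme of the beta-oxidation cycle, had 4768, 4269 and 4856 at 32.4 Gy, against 2969, 2915 and 2741 at 11.2 Gy (log2 ratio 0.69 ± 0.08, adjusted p = 0.0001058), with its other probes at 0.62, 0.56 and -0.13. Hadh (log2 ratio 0.64) was lost without 11.2 Gy replicate 1 (0.57), and Acot2 (0.59) without 32.4 Gy replicate 1 (0.57), 32.4 Gy replicate 2 (0.56) or 11.2 Gy replicate 3 (0.57), and both fell short of 1.5-fold under 3 of 4 other scalings (0.34 and 0.30 at the smallest). Another probe of Acot2 gave -0.13. Among 33 detected subunits of respiratory complex I, limma called 0 and all 33 had a ratio above 0, with a median of 0.13 and a highest value of 0.41. The citric acid cycle was not called in any of 21 detected genes (median 0.04). Nsdhl, a sterol dehydrogenase, was the only called gene of cholesterol synthesis among 18 detected (log2 ratio 0.95 ± 0.10, adjusted p = 5.119e-05), beside 0.56% of all probes called higher. Other probes of Nsdhl gave 0.70, 0.69 and 0.11.

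Interferons induce antigen presentation by MHC class I molecules and a set of GTPases that act on intracellular pathogens. B2m, the invariable chain of MHC class I, had 11770, 11880 and 12294 at 32.4 Gy, against 6897, 8368 and 7431 at 11.2 Gy (log2 ratio 0.67 ± 0.08, adjusted p = 0.0002001), and its other probe gave 0.68. The brighter probe just missed the adjusted p under neqc background correction (0.01023). Igtp, an interferon-induced GTPase, had 589, 532 and 568 at 32.4 Gy, against 371, 376 and 340.1 at 11.2 Gy (log2 ratio 0.64 ± 0.08, adjusted p = 0.0001666), but fell short of 1.5-fold under 3 of 4 other scalings (0.48 at the smallest). At 0 Gy, B2m had 12970, 12970 and 12474, close to the level at 32.4 Gy. Of 39 genes of this list with a probe, 29 were detected, 2 were called higher, beside 0.56% of all probes, and 0 lower. With these 2, 10 passed the adjusted p, beside 1.43% of all probes in that direction. Their median was 0.32 (0.27 over all 39), and 26 of the 29 were above 0. Values of genes that passed the adjusted p without reaching 1.5-fold included Gbp2 (0.55), Psmb8 (0.55), Rsad2 (0.52), H2-D1 (0.44) and H2-T23 (0.39). Outside the list, and picked after their values were seen, the GTPases Irgm2 (0.74) and Ifi47 (0.64) and the class I gene H2-Q8 (0.67) were called, Ifi47 not under 3 of 4 other scalings (0.32 at the smallest) and Irgm2 not under neqc. MHC class I genes are close in sequence, so that their probes may share transcripts.

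The 10 genes that passed the adjusted p were searched on both strands for the core of the interferon-stimulated response element, which was taken as GAAA, any 2 bases and GAAA again. It was found in 6 of their 12 promoters (50%), those of B2m, Gbp2, Gbp3, H2-T23, Igtp and Rsad2, against 978 of 32851 promoters of all genes (2.98%), and in 0 of the 26 muscle promoters. CAGCTG was found in 0 of the 12. Promoters of the called genes of this list are printed with the element in capitals, Igtp (chr11:58199306-58199555, plus strand) with the element beginning 34 bases before the start and B2m (chr2:122147437-122147686, plus strand) with it 139 bases before.
Igtp promoter: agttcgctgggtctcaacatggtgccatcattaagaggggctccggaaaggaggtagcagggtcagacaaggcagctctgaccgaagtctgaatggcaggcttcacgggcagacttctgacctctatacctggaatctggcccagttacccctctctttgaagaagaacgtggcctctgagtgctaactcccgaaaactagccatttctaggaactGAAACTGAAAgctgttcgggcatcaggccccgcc
B2m promoter: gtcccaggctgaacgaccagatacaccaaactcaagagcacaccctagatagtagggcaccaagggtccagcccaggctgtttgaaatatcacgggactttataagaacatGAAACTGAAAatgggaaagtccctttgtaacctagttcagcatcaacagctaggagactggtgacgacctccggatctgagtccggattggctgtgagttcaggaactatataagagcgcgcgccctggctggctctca
Whether the element is occupied in this tissue was not measured. The genes came from a list of interferon response genes, and members that did not pass were not compared. The share may therefore go with the choice of list and cannot be tied to the dose.

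On the inflammation list, 1 detected gene was called. Ccl8, a chemokine that attracts monocytes, had 771, 780.0 and 867 at 32.4 Gy, against 365, 412 and 422 at 11.2 Gy (log2 ratio 1.01 ± 0.08, adjusted p = 4.416e-06). It was the only called gene of 16 detected (median 0.13), beside 0.56% of all probes called higher. With it, 3 passed the adjusted p upward, beside 1.43% of all probes, and 1 downward, beside 1.08%. Serpina3n (0.68) and Orm1 (0.65), picked after their values were seen, were also called higher. Hp was called by its dimmest probe (0.67), but not without 32.4 Gy replicate 1 (0.54), and its brighter probes gave 0.55 and 0.20. S100a8, a calcium-binding protein of neutrophils, had 501, 446 and 480.1 at 32.4 Gy, against 226, 211 and 225 at 11.2 Gy (log2 ratio 1.11 ± 0.07, adjusted p = 6.653e-07). In the non-irradiated pool S100a8 was at 549, 550.2 and 486. Markers of resident and blood-borne cells moved little. Limma called 0 of 14 detected macrophage genes (median 0.20, 2 passed the adjusted p), 0 of 18 endothelial genes (median 0.16), 0 of 6 MHC class II genes (median 0.23) and 0 of 4 erythrocyte genes (median 0.35). Of the last, Alas2, the first enzyme of haem synthesis in red cells, had a ratio of 0.57 (adjusted p = 0.0002439), and Hba-a1 of 0.36 (adjusted p = 0.007181). The globin Hbb-bt, which is not on the list and was picked after its values were seen, was called (0.67, adjusted p = 0.000777), but under none of 4 other scalings. T cell genes were detected in 1 of 15 cases and B cell genes in 1 of 11. Of 19 detected fibroblast and matrix genes limma called 0 (median -0.02). Of 4 Schwann cell and 9 smooth muscle genes it called 1 each, beside 0.56% of all probes called higher. These were Cryab and Des, which are also on the heat shock and muscle lists. Cartilage genes were detected in 3 of 17 cases and airway or oesophagus genes in 2 of 18, with none called.

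Genes known to respond to ionizing radiation differed little between the doses. Of 23 detected p53 targets among 33 with a probe, limma called 0, with a median of -0.01 and, by the brightest probe of each gene, 1 gene, Dcxr (-0.37), past the adjusted p alone. Ccng1, a cyclin induced by p53, had 1900, 2040 and 2032 at 32.4 Gy, against 1872, 1816 and 1609 at 11.2 Gy (log2 ratio 0.18), and its other probes gave 0.26 and 0.41, of which the higher passed the adjusted p (0.003643) but not 1.5-fold. Phlda3, an inhibitor of Akt, had 1963, 1837 and 1876 at 32.4 Gy, against 1646, 1584 and 1629 at 11.2 Gy (log2 ratio 0.22). Ei24 and Ephx1 gave -0.14 and -0.10. Further targets, picked after their values were seen, were Cdkn1a (p21) at 0.38 (adjusted p = 0.02089) and Mdm2 at -0.00. Among 20 detected genes of DNA damage sensing and repair, 0 were called and 0 passed the adjusted p alone, with a median of -0.00 and a range from -0.23 to 0.27. Parp1, Xrcc6 and Msh6, which sense breaks, join ends and detect mismatches, gave -0.10, -0.06 and -0.23. Of 20 detected apoptosis genes limma called 0, with 1 past the adjusted p alone and a median of -0.02. A gene that differed by less than 1.5-fold could not be called, so that these counts do not cover smaller differences. Of 50 simulated 1.5-fold changes the fit called 23, so that differences of about that size may also have been missed.

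In the cell cycle, Ccnd2, a cyclin of the passage from G1 into S phase, rose, with 549.9, 499.9 and 557 at 32.4 Gy, against 338, 363 and 301 at 11.2 Gy (log2 ratio 0.68 ± 0.08, adjusted p = 0.0002255), but fell short of 1.5-fold under 2 of 4 other scalings (0.50 at the smallest). It was the only called gene of 13 detected among 35 with a probe, beside 0.56% of all probes called higher. The other 22 were under the detection limit. Immediate early genes, which follow acute stimuli within minutes, were called in 0 of 15 detected cases, but 13 of the 15 had a ratio below 0, with a median of -0.24 and 2 past the adjusted p alone, Klf2 (-0.55) and Jun (-0.42). Dusp1, a phosphatase of this class, had 2349, 2124 and 2562 at 32.4 Gy, against 2915, 3306 and 3081 at 11.2 Gy (log2 ratio -0.41, adjusted p = 0.01147). Egr1 had 945, 968 and 918 at 32.4 Gy, against 1052, 1083 and 899 at 11.2 Gy (log2 ratio -0.10). Clock genes were called in 0 of 20 detected cases by limma, with Dbp at 0.15 and Bhlhe40 at 0.28. Ciart, a repressor of the clock, lay just short of 1.5-fold (0.58, adjusted p = 0.0007943). Limma also called 0 of 21 detected genes of the glucocorticoid and fasting response and 0 of 20 of insulin signalling, with medians of -0.01 and 0.09. Among 23 detected genes of potassium and sodium transport, Scn4b, a sodium channel subunit, was higher (0.66, but not under 3 of 4 other scalings) and Atp1b1 lower, with a median of -0.19. Over all probes, 0.56% were called higher and 0.296% lower. Cytosolic ribosomal proteins were called in 0 of 35 detected cases, with ratios from -0.19 to 0.11.

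The level of the non-irradiated pool gives the place of both doses on the scale. Of the 36 called probes on the muscle lists, all 36 had a lower mean at 0 Gy than at either dose. Mylpf, for instance, had 272, 335 and 351 at 0 Gy and Tnnc2 546, 517 and 447. Of the 24 called probes on the salivary lists, 9 had a higher mean at 0 Gy than at either dose and 15 a lower one. The parotid and demilune genes lay highest at 0 Gy, where Dnase1 had 36415, 27486 and 34983 and Bpifa2 32497, 31769 and 31769. Most submandibular genes lay lowest there, with Smr3a, at 22977, 22977 and 23662, as an exception. Smgc had 96.2, 99.0 and 100.4 at 0 Gy, near the detection limit, and Klk1b22 had 163, 135 and 169. From 0 Gy to either dose, the called parotid and demilune genes thus fell while the called muscle genes rose. Most called submandibular genes instead rose together with the muscle genes over this step. Between the doses, the called salivary genes were lower and the called muscle genes higher at the higher dose. The part that the tissue taken with each gland had in the differences between the doses was not tested, and with 1 pool per dose it cannot be told apart from the dose.

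**Figure D5:**
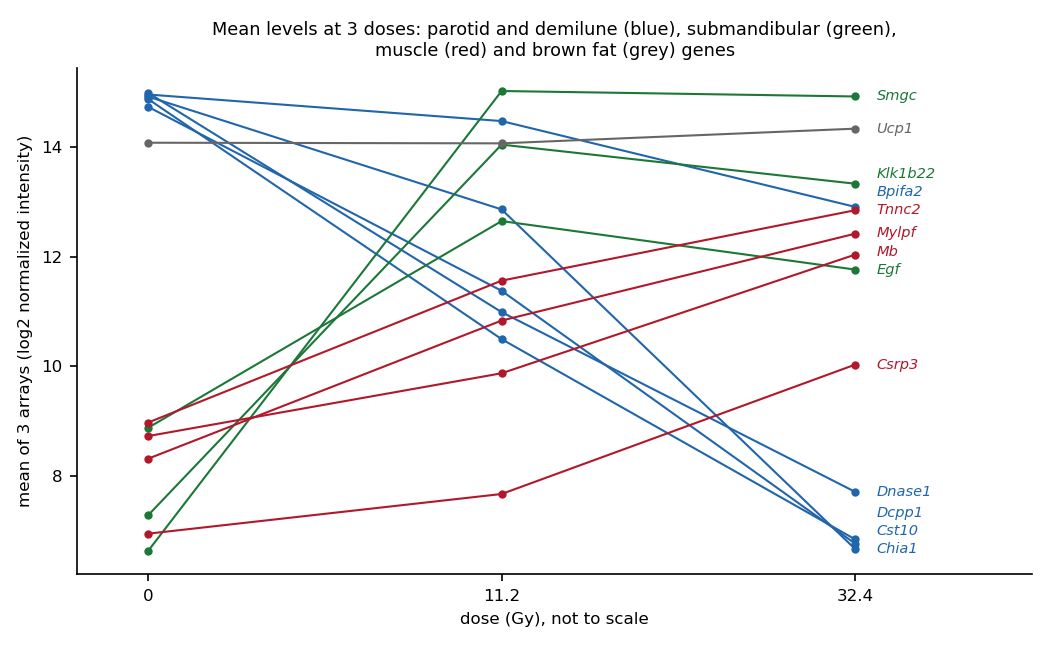
Mean log2 normalized intensity of 3 arrays (vertical axis) at 0, 11.2 and 32.4 Gy (horizontal axis, not to scale) for parotid and demilune genes (blue), submandibular genes (green), muscle genes (red) and Ucp1 (grey). Among these 3 of the 6 dose groups, the blue genes are highest at 0 Gy and lowest at 32.4 Gy, and the red genes are the reverse. The plotted means of the green genes are highest at 11.2 Gy. For Smgc the 2 doses hardly differ (log2 ratio -0.10 with overlapping arrays, and 0.05 by another bright probe).

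Some called values rest on less. Sval2, a seminal vesicle antigen-like secreted protein, had 186, 166 and 299.6 at 32.4 Gy, against 361, 419 and 358 at 11.2 Gy (log2 ratio -0.85 ± 0.16, adjusted p = 0.006459). Its array 3 of 32.4 Gy lay well above the others, and the call held in only 1 of 6 fits that each left out 1 array, with adjusted p-values of 0.01981 to 0.0415 in the other 5. Nearest to the 1.5-fold limit among called genes were Krt23 (-0.59), Acot2 (0.59) and Slc25a1 (0.59), and just short of it were Hid1 (-0.58), Fsd2 (0.58) and Ciart (0.58). Krt23 was lost without 32.4 Gy replicate 1 (-0.53) or 11.2 Gy replicate 2 (-0.57), and Slc25a1 without 32.4 Gy replicate 2 (0.56), 11.2 Gy replicate 1 (0.58) or 11.2 Gy replicate 2 (0.58). For several genes a bright and a dim probe disagreed. Sparc, a matrix protein, gave 0.07 by its brightest probe and 0.63, a called value, by another. Pmp22, a myelin protein, gave 0.26 and 0.65, and Tpm2, a tropomyosin, 1.23 and 0.24. The highest ratio of all belonged to a probe without a gene name in the annotation used, ILMN_1219423, with 1789, 1898 and 1800 at 32.4 Gy, against 338, 346 and 344 at 11.2 Gy (log2 ratio 2.41 ± 0.07, adjusted p = 5.76e-11).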

How the data were processed

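Thyroids pooled per dose group were hybridised by the authors to Illumina MouseRef-8 arrays, 3 per pool. The authors scanned the arrays and quantile-normalized the signals. They deposited linear intensity values from before and after normalization, and detection p-values for every probe on every array. A background subtraction is not given in the sources used here. The 12 arrays of 0, 1.4, 11.2 and 32.4 Gy share 1 distribution. A further deposited table was identical to the normalized one (largest difference 0), and 815 control probes were not used.

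Log2 of the deposited normalized intensity of 6 arrays was fitted with limma 3.58.1 under R 4.3.3, with Benjamini-Hochberg adjustment over all 25697 probes. Calls needed an adjusted p under 0.01 and 1.5-fold, as in the study's thresholds. Symbols came from the platform annotation, updated through Entrez IDs to RefSeq (23978 probes with a symbol, 1719 without, 16 symbols not matched), and promoters from RefSeq, GRCm38.p6. Probe sequences came from the study's probe annotation, which held 103 of the 219 called probes. Each gene is given by its brightest probe unless others are named. For a probe detected on no array of a dose, the bound sets the other dose against the higher of the lowest detected signal and the probe's own. The number of arrays limits the precision.

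Named genes were the 15 highest and 15 lowest called genes, for each list up to 6 called members, up to 4 bright members of lists without calls and of cell type lists, and up to 3 genes on either side of 1.5-fold. Other genes were picked after their values were seen. The members and the 44 lists were chosen with earlier results of these data known. The fit was tested on simulated data with 50 changed probes of each size. It called 0 at 1.2-fold, 23 at 1.5-fold, 45 at 2-fold and 50 at 4-fold, with 0 false calls. Since a call needs 1.5-fold, changes of 1.2-fold could hardly be called. The simulated noise was independent between arrays, so that the 0 false calls do not cover differences between pools. Alternatives covered normalization, background correction, spread, filters, thresholds, replicate block and each left-out array. Plots used Python 3.11.15 and matplotlib 3.10.9.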

Additional observations from a re-analysis of the deposited data

How the results depend on the processing

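Called probes numbered 219 (143 higher and 76 lower), and all 219 kept their direction in the 6 fits that left out 1 array and under the 4 other scalings. Of them, 164 stayed called in all 6 of those fits (119 higher and 45 lower), 125 under all 4 scalings, and 109 in both. Left-out arrays gave totals of 212 to 247, with 142 to 155 higher and 69 to 93 lower. Without a fold minimum, 643 probes were called (365 higher and 278 lower), and at 2-fold 48 (38 higher and 10 lower). Quantile normalization of the raw signals gave 168 calls over the 6 arrays and 189 over 18, background correction by neqc 253, and 75th percentile scaling 168. The last shifted the median of all probes to -0.15, with 61.9% of calls higher in place of 65.3%. The called ratio of Trim54 (0.66) ranged from 0.24 to 1.14 over the 4 scalings, and the cause was not tested. An offset of 16 gave 207 calls, and the spread of 12 or 18 arrays 221 or 219. For Acaa2 and Acot2, another probe turned the direction (-0.13 for each). Between the doses, arrays with the same replicate number deviated together with correlations of 0.0539 to 0.133, against -0.0989 to 0.022 for other numbers. These correlations were low, but the 2 ranges did not overlap. The main fit did not pair arrays by number. With the replicate block it gave 220 calls (144 higher and 76 lower), 219 of them shared. A chip block was not run, since no chip is named in the files used. Only 9182 of the detected probes were detected on all 6 arrays, and for probes detected on no array of a dose the ratio is only a bound.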

Other observations

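Some called transcripts belong to groups not described above, and were picked after their values were seen. Glutathione S-transferases conjugate reactive compounds to glutathione. Gsta3 had 1546, 1510 and 1586 at 32.4 Gy, against 941, 933 and 859.6 at 11.2 Gy (log2 ratio 0.76 ± 0.07, limma adjusted p = 1.973e-05). The related Gstp2 (0.85) and the microsomal Mgst1 (0.91 and 0.59 by 2 probes), Mgst2 (0.75) and Mgst3 (0.60) were also called higher. A brighter probe of Mgst3 gave 0.42 and was not called. The call of Mgst3 was lost without 32.4 Gy replicate 2 or 11.2 Gy replicate 1 (0.57 at the lowest) and under 2 of 4 other scalings (0.56), that of Gstp2 under 75th percentile scaling (0.55), and that of the second Mgst1 probe without 32.4 Gy replicate 1, 32.4 Gy replicate 2 or 11.2 Gy replicate 2 (0.56 at the lowest). Other detected genes of the antioxidant list did not follow, since Gsta3 was the only called gene of 22 detected, with a median of 0.09. Over all probes, 0.56% were called higher.

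A few called transcripts that were lower act in amino acid and folate metabolism or respond to stress. Slc7a5, a carrier of large neutral amino acids, had 542, 562 and 543 at 32.4 Gy, against 888, 835 and 869.9 at 11.2 Gy (log2 ratio -0.65 ± 0.07, limma adjusted p = 6.921e-05). Aldh18a1, the first enzyme of proline synthesis, gave -0.86, the mitochondrial folate enzyme Aldh1l2 gave -0.83, and -0.40 by another probe that was not called, and the stress-induced Nupr1 gave -0.71. Slc7a5 was the only called gene of 22 detected on the list of endoplasmic reticulum stress and amino acid response (median -0.14). Over all probes, 0.296% were called lower. The pheromone-binding proteins Mup20 (1.16) and Mup2 (0.95) were called higher, beside Mup5 at 0.50 and 0.57, which missed 1.5-fold. Mup20 and Mup2 missed the adjusted p under neqc background correction, and probes of this family may share transcripts.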
